A study of Homo sapiens with 6 samples.

Results

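The transcripts described here are those of 39 genes for glucose uptake, glycolysis, lactate formation, the gate between pyruvate and the mitochondrion, and the pentose phosphate pathway. They were chosen by a list of gene symbols, drawn up with earlier results of these data known. The rule itself uses no measured change, and each gene was read from its probe set with the highest mean log2 signal over the arrays. Of the 39 genes, 37 had a probe set that carries 1 gene symbol, and all 37 passed the minimum mean signal of 5 log2 units, within 13506 genes tested in all. SLC16A1 and SLC16A3, the lactate transporters MCT1 and MCT4, had no such probe set and were not analysed here.

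All 6 arrays hold RNA of A375, a human melanoma cell line driven by an active mutant BRAF kinase, which vemurafenib inhibits. The gene for eIF4B, an initiation factor that assists the helicase which unwinds mRNA leaders, had been knocked out by CRISPR in every sample, so no unedited A375 culture is among them. The KO/LacZ line, called the knockout line below, carries a lentiviral LacZ control, and the KO/eIF4B line, called the rescued line, carries lentiviral wild-type eIF4B. Each line was profiled on 1 array after 6 h of 10 µM vemurafenib, 1 after 18 h, and 1 after DMSO vehicle, for which the labels give no hour. The labels do not say whether a line is 1 clone, nor whether each array had a culture of its own. The p-values therefore measure only the spread between these arrays, which may be technical. EIF4B itself read 8.40, 8.53 and 8.53 log2 units in the knockout line (vehicle, 6 h, 18 h) and 10.07, 10.14 and 10.28 in the rescued line, a difference of -1.68 (SE 0.054, limma, Benjamini-Hochberg adjusted p = 0.0056).

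Cells take up glucose through facilitative transporters of the SLC2A family, and hexokinases trap it as glucose 6-phosphate. That metabolite then enters glycolysis, glycogen or the pentose phosphate pathway, which yields NADPH and ribose. Phosphofructokinase is the main control point of glycolysis and is stimulated by fructose 2,6-bisphosphate, which the PFKFB enzymes make and remove. At the far end lactate dehydrogenase turns pyruvate into lactate, while pyruvate dehydrogenase kinases hold pyruvate back from mitochondrial oxidation. Melanoma cells with active BRAF are known for strong glucose uptake and lactate output, which depends in part on the transcription factors MYC and HIF1A.

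Array medians lay between 5.196 and 5.221 log2 units, and the 3' minus 5' control signal, a sign of RNA decay, was -0.01 to 0.04 log2 units for GAPDH and 0.13 to 0.18 for ACTB. Of 10 melanoma genes 9 passed the minimum signal, with SOX10 at 9.86 to 10.57 log2 units, TYR and PMEL near the minimum at means of 5.57 and 5.68, and MLANA, a defining pigment cell gene, below it. Of these 9, 1 was higher and 3 lower at 6 h (MITF at 1.01, against SOX10 at -0.63, NGFR at -0.62 and CSPG4 at -0.55). At 18 h 2 were higher (MITF at 1.63, S100A1 at 0.28) and 2 lower (NGFR at -0.93, CSPG4 at -0.74), and the summed signal of the list was 5059 to 5624 at 6 h and 5516 to 6047 at 18 h, against 5352 to 6059 under vehicle. Among markers of other cell types, EPCAM, CDH1 and KRT19 of 6 epithelial genes, PDGFRA of 5 fibroblast genes, and PTPRC and CD14 among the blood genes were below the minimum. The 4 tested fibroblast genes included 2 that were higher at 6 h (LUM and DCN) and 3 that were higher at 18 h (LUM, DCN and ACTA2). Their summed linear signal, PDGFRA included, was 631 to 734 at 6 h and 1238 to 1571 at 18 h, against 469 to 588 under vehicle. The summed signal of the epithelial genes was 5408 to 6729 at 6 h and 4899 to 6200 at 18 h, against 6311 to 7890 under vehicle. KRT18, the brightest of them, was lower at 18 h (-0.78), while the other 2 tested, KRT14 and KRT8, were higher (1.45 and 0.39). At 6 h 1 of the 3 was higher (KRT14, 0.51) and 1 lower (KRT18, -0.32). For the blood genes the sum was 180 to 215 at 6 h and 145 to 153 at 18 h, against 198 to 227 under vehicle, with LYZ lower at 18 h (-0.86) and CD3E not past the threshold. Between the lines, NGFR was lower in the knockout line (-0.69, limma, Benjamini-Hochberg adjusted p = 0.028) and KRT8 was higher (0.49, adjusted p = 0.035). No other tested marker passed between the lines. Over all 13506 tested genes, 16.2% were called at 6 h, 51.4% at 18 h and 2.50% between the lines. The part of these markers in the results below was not tested.

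The first question was which of these genes differed after 6 h of vemurafenib in both lines together. At 6 h the transporters SLC2A1 and SLC2A3, hexokinase HK2 and the bifunctional enzyme PFKFB3 fell, and PFKFB4 and RPIA fell by less. PDK4, a pyruvate dehydrogenase kinase, and PGD, the NADPH-forming 6-phosphogluconate dehydrogenase, rose. In limma's additive fit of line and treatment, 6 of 37 genes were lower and 2 higher at a Benjamini-Hochberg adjusted p under 0.05, and 29 did not pass. Among the 37 genes 16.2% were thus lower, 5.41% higher and 21.6% called either way, against 8.82% lower, 7.34% higher and 16.2% either way over all 13506 tested genes. The median change was 0.03 log2 units both for the 37 genes and for all tested genes.

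SLC2A3, the high-affinity glucose transporter GLUT3, had the largest change of the 37 genes. It read 8.68, 6.47 and 6.58 log2 units in the knockout line (vehicle, 6 h, 18 h) and 8.96, 6.45 and 6.61 in the rescued line. All 4 drug arrays lay more than 2 log2 units below both vehicle arrays. The change was -2.35 at 6 h (SE 0.091, 5.11-fold lower, limma, Benjamini-Hochberg adjusted p = 0.00050) and -2.22 at 18 h (adjusted p = 0.00020). SLC2A14 is a near-identical copy of SLC2A3, and the probe set is of the kind that can bind related transcripts, so the value may hold both. Since these are bulk cultures, less transcript in each cell and fewer cells with the transcript cannot be told apart.

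SLC2A1, the widespread basal glucose transporter GLUT1, read 9.27, 8.02 and 7.86 in the knockout line and 9.44, 8.17 and 8.06 in the rescued line. Vehicle arrays were again above every drug array, and most of the change was present at 6 h. The change was -1.26 at 6 h (SE 0.059, 2.39-fold lower, limma, Benjamini-Hochberg adjusted p = 0.00075) and -1.39 at 18 h (adjusted p = 0.00021). SLC2A6 (GLUT6), a transporter found on lysosomes, went the other way at 18 h by 0.38 (adjusted p = 0.015) and is taken up with the comparison of the lines.

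HK2, the inducible mitochondrial hexokinase of many tumours, read 9.80, 9.11 and 8.53 in the knockout line and 9.83, 9.04 and 8.49 in the rescued line. Its arrays separated in 3 tiers without overlap. The change was -0.74 at 6 h (SE 0.062, limma, Benjamini-Hochberg adjusted p = 0.0034) and -1.30 at 18 h (2.47-fold lower, adjusted p = 0.00025). HK1, the constitutive hexokinase, lay between 10.45 and 10.73 on all arrays and changed by -0.08 at 6 h, which did not pass, and by -0.24 at 18 h (adjusted p = 0.022). GPI, the isomerase that follows hexokinase, was higher at 18 h by 0.40 (adjusted p = 0.0043).

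**Figure D1:**
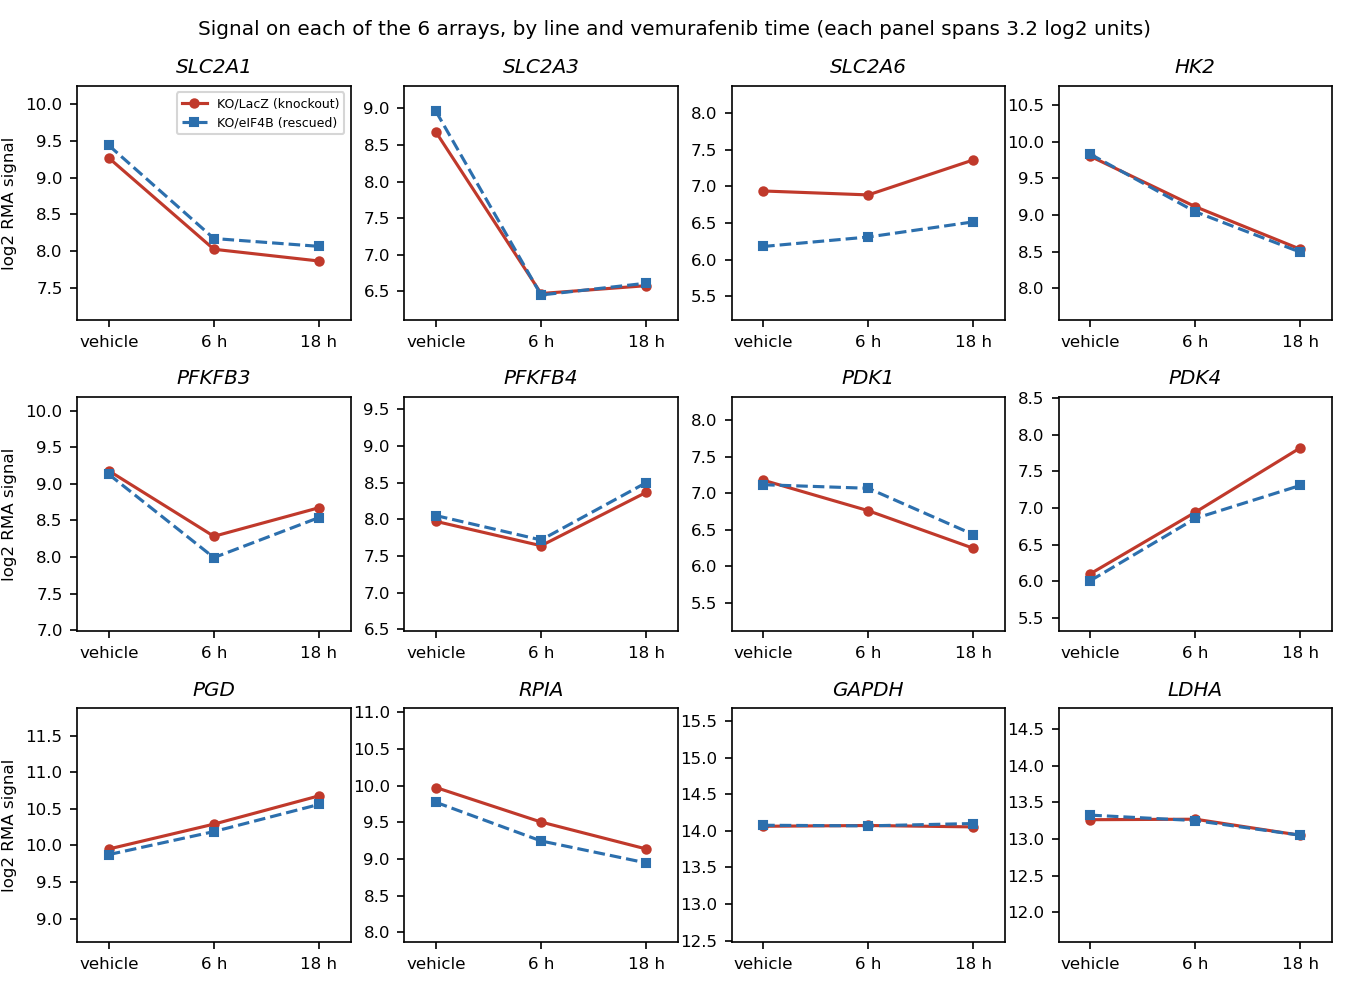
Log2 RMA signal of 12 genes (y axis) under vehicle and after 6 h and 18 h of 10 µM vemurafenib (x axis), 1 point per array, with circles for the knockout line and squares for the rescued line; lines join the arrays of a line and every panel spans 3.2 log2 units. SLC2A1, SLC2A3 and HK2 were lower on all drug arrays, PFKFB4 was lowest at 6 h and highest at 18 h, and GAPDH stayed between 14.05 and 14.10.

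The 300-base promoters of some, not all, of the genes with marked changes are shown so that motif matches near their starts can be compared. They come from RefSeq (GRCh38.p14, 250 bases before the start to 50 after it). These are SLC2A1 at chr1:42958819-42959118 (minus strand), HK2 at chr2:74833877-74834176 (plus strand), PFKFB3 at chr10:6144671-6144970 (plus strand) and PDK4 at chr7:95596467-95596766 (minus strand). Each is written 5' to 3' on its gene's strand. Capitals mark matches to any of 4 motifs searched on both strands: the E-box CACGTG, bound by MYC with MAX, the hypoxia response core ACGTG, the AP-1 motif TGANTCA and the ETS motif CCGGAA. An E-box also holds the core, on each strand.
SLC2A1: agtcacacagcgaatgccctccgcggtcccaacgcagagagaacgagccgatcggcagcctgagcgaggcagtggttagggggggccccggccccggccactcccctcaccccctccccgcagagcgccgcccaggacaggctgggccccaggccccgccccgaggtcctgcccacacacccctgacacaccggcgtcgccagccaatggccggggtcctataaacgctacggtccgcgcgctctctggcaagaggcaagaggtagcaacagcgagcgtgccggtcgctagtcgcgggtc
HK2: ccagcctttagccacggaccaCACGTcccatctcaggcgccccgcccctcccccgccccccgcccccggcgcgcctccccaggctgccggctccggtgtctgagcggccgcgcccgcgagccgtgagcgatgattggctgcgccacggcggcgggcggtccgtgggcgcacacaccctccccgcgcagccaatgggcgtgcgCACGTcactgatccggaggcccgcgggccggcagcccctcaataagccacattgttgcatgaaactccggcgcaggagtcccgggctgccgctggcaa
PFKFB3: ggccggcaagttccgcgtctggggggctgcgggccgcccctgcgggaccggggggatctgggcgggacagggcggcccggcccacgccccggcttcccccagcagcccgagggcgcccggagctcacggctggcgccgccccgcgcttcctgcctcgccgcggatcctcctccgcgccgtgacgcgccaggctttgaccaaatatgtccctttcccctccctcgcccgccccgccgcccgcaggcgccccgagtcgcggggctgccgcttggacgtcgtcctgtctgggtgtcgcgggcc
PDK4: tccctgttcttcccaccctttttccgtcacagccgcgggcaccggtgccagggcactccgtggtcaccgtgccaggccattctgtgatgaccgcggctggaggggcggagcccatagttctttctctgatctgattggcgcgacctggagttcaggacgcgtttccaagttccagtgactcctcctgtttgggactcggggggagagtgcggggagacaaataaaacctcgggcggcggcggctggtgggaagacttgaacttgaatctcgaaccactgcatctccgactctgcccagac

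Within these windows SLC2A1, PFKFB3 and PDK4 had 0 matches to the 4 motifs, and HK2 had 2 matches to the hypoxia response core. PGD at chr1:10398814-10399113 (plus strand), which was higher on every drug array, is shown with LDHA at chr11:18394313-18394612 (plus strand) and ALDOC at chr17:28576846-28577145 (minus strand) because the last 2 hold an E-box and moved in opposite directions at 18 h.
PGD: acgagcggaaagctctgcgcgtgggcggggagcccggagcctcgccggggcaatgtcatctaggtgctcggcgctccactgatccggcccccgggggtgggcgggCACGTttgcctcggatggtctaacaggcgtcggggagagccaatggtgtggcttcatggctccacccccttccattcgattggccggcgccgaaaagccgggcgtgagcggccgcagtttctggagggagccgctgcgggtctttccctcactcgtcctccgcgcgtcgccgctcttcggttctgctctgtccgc
LDHA: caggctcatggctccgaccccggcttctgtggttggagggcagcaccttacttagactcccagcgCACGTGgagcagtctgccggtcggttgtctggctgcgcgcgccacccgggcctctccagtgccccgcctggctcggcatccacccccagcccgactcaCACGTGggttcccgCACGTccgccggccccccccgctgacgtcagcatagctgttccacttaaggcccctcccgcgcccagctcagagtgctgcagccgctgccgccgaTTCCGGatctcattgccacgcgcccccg
ALDOC: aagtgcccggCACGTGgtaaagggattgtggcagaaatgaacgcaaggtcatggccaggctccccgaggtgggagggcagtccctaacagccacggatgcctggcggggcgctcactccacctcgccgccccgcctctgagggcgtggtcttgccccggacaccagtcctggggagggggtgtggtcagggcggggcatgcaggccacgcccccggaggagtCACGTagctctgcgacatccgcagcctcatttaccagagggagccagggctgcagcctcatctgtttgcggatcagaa

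LDHA had 2 E-box matches, 5 matches to the core and 1 ETS match, ALDOC had 1 E-box and 3 core matches, and PGD had 1 core match. Promoters were found for 35 of the 37 genes. The core was in 12 of the 35 (34.3%), against 21.4% of 35116 promoters in the table, and the E-box in 4 (11.4%), against 7.26%. The ETS motif was in 8 of the 35 (22.9%), against 17.25%, and the AP-1 motif in 1 (2.86%), against 7.71%. Genes with the ETS motif were PFKP, RPIA, LDHA and PGM2, lower at 18 h, GPI and PFKM, higher, and ENO1 and RPE, which did not pass. The promoters of PFKP and RPIA are not among those shown. Of the 12 genes with the core, 5 were higher at 18 h (GPI, ALDOC, ENO2, PDK3, PGD), 4 were lower (HK2, TIGAR, LDHA, PGM2) and 3 did not pass (ALDOA, GAPDH, PGK1), against 70.3% of the 37 genes and 51.4% of all tested genes called at that time. These are letter matches in short windows, given without a test.

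PFKFB3, whose kinase activity makes fructose 2,6-bisphosphate, read 9.18, 8.28 and 8.67 in the knockout line (vehicle, 6 h, 18 h) and 9.13, 7.99 and 8.54 in the rescued line. Drug arrays lay below vehicle at both times, with the 6 h arrays lowest. The change was -1.02 at 6 h (SE 0.079, limma, Benjamini-Hochberg adjusted p = 0.0028) and -0.55 at 18 h (adjusted p = 0.0036). PFKFB4, another bifunctional enzyme, read 7.97, 7.64 and 8.37 in the knockout line and 8.05, 7.72 and 8.50 in the rescued line. Its 6 h arrays were below vehicle and its 18 h arrays above vehicle. The change was -0.33 at 6 h (SE 0.059, adjusted p = 0.024) and 0.42 at 18 h (adjusted p = 0.0033). PFKFB2, a further isoenzyme, changed by 0.09 and 0.16 at 6 h and 18 h, and neither passed.

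PDK4 read 6.10, 6.94 and 7.82 in the knockout line and 6.01, 6.86 and 7.31 in the rescued line. Signals rose at each step in both lines. The change was 0.85 at 6 h (SE 0.12, limma, Benjamini-Hochberg adjusted p = 0.015) and 1.51 at 18 h (2.85-fold higher, adjusted p = 0.00070). PGD read 9.95, 10.29 and 10.68 in the knockout line and 9.87, 10.19 and 10.56 in the rescued line, again in 3 tiers without overlap. It was higher by 0.33 at 6 h (SE 0.058, adjusted p = 0.024) and by 0.71 at 18 h (adjusted p = 0.00073). RPIA, the isomerase that forms ribose 5-phosphate, read 9.97, 9.50 and 9.14 in the knockout line and 9.77, 9.24 and 8.95 in the rescued line. All drug arrays were below both vehicle arrays. It changed by -0.50 at 6 h (SE 0.060, adjusted p = 0.0090) and by -0.83 at 18 h (adjusted p = 0.00055).

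With 1 array left out at a time, SLC2A1, SLC2A3, HK2 and PFKFB3 passed at 6 h in all 6 fits, and the other 4 calls did not. The calls of PFKFB4, PDK4, PGD and RPIA were lost without the knockout vehicle array (limma, Benjamini-Hochberg adjusted p = 0.194, 0.0782, 0.202 and 0.0739) and without the rescued 6 h array (adjusted p = 0.137, 0.0843, 0.130 and 0.0693). PFKFB4, PGD and RPIA were also lost without the rescued vehicle array (adjusted p = 0.168, 0.168 and 0.0828), and PFKFB4 and PGD without the knockout 6 h array (adjusted p = 0.107 and 0.119).

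After 18 h of vemurafenib, 13 of the 37 genes were higher, 13 lower and 11 did not pass (limma, Benjamini-Hochberg). SLC2A1, SLC2A3, HK2, PFKP, PFKFB3, RPIA and PDK1 were among the lower genes, while PDK2, PDK3, PDK4, the tissue-restricted isoenzymes ALDOC and ENO2, and the oxidative pentose phosphate genes PGLS and PGD were among the higher ones. In all, 70.3% of the genes were called, with 35.1% in each direction, against 51.4% of all tested genes called, 28.1% higher and 23.3% lower. The median change was 0.01 log2 units both for the 37 genes and for all tested genes. The 6 h and 18 h comparisons share both vehicle arrays.

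With each array centred on the median of its tested genes, their median change at 18 h moved by -0.10 log2 units. The split over all genes went to 2980 higher and 4151 lower, where it was 3797 higher and 3150 lower as deposited. Among the 37 genes it became 12 higher and 14 lower: PFKM no longer passed (0.15, adjusted p = 0.127) and PGAM1 did (-0.25, adjusted p = 0.041, limma).

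The pyruvate dehydrogenase kinases divided by isoenzyme. PDK1, the isoenzyme best known as a hypoxia-induced target of HIF1A, read 7.18, 6.76 and 6.25 in the knockout line (vehicle, 6 h, 18 h) and 7.12, 7.07 and 6.44 in the rescued line. Arrays at 18 h were below all others, and at 6 h the knockout array alone lay well below its vehicle array. The change at 18 h was -0.80 (SE 0.10, limma, Benjamini-Hochberg adjusted p = 0.0023). PDK2, the most widely expressed isoenzyme, read 7.18, 7.47 and 7.96 in the knockout line and 7.01, 7.18 and 7.67 in the rescued line. PDK3 read 8.13, 8.41 and 8.94 in the knockout line and 7.84, 8.22 and 8.40 in the rescued line. Within each line both genes were lowest under vehicle and highest at 18 h, with changes at 18 h of 0.72 for PDK2 (adjusted p = 0.00090) and 0.69 for PDK3 (adjusted p = 0.0033).

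In the pentose phosphate pathway, PGLS, the lactonase between the 2 dehydrogenases, read 9.70, 9.84 and 10.42 in the knockout line and 9.49, 9.86 and 10.34 in the rescued line. Its 18 h arrays were above all others, with a change of 0.78 (SE 0.077, limma, Benjamini-Hochberg adjusted p = 0.0011). TALDO1, transaldolase of the non-oxidative branch, was higher at 18 h by 0.30 (adjusted p = 0.010). TKT, transketolase, changed by 0.18 (adjusted p = 0.062), and RPE, the epimerase, by -0.02, with neither past the threshold. PGM1, which links glucose 6-phosphate to glycogen, was higher by 0.52 (adjusted p = 0.0049), and PGM2, which acts mainly on pentose phosphates, changed by -0.37 (adjusted p = 0.0061).

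The subunits of phosphofructokinase did not share a direction. PFKP, the platelet-type subunit, read 10.86, 10.49 and 10.04 in the knockout line and 10.77, 10.52 and 10.20 in the rescued line, with a change at 18 h of -0.69 (SE 0.081, limma, Benjamini-Hochberg adjusted p = 0.0018). PFKM, the muscle-type subunit, changed by 0.25 (adjusted p = 0.029), and PFKL, the liver-type subunit, by 0.08 (adjusted p = 0.378). TIGAR and FBP1, phosphatases of fructose bisphosphates, changed by -0.28 (adjusted p = 0.015) and -0.33 (adjusted p = 0.042). FBP1 had a mean signal of 5.02 log2 units, just above the minimum of 5, and an 18 h mean of 4.85, below it. It entered the test only through the vehicle and 6 h arrays, so its call is not read as a result, although the counts at 18 h include it.

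Between aldolase and pyruvate kinase, the tissue-restricted ALDOC and ENO2 rose at 18 h, PKM fell, and the other 6 genes did not pass. ALDOC, the aldolase typical of brain, read 7.63, 7.79 and 8.39 in the knockout line and 7.73, 7.85 and 8.33 in the rescued line. ENO2, the neuronal enolase, read 7.13, 7.33 and 7.59 in the knockout line and 7.16, 7.27 and 7.65 in the rescued line. Both had their highest arrays at 18 h, with a change of 0.68 for ALDOC (limma, Benjamini-Hochberg adjusted p = 0.0012) and of 0.47 for ENO2 (adjusted p = 0.0028). Their ubiquitous counterparts ALDOA and ENO1 changed by 0.12 (95% interval -0.03 to 0.27) and 0.00 (-0.15 to 0.15). GAPDH changed by 0.01 (-0.14 to 0.16), PGK1 by -0.01 (-0.16 to 0.15), TPI1 by 0.08 (-0.07 to 0.23) and PGAM1 by -0.15 (-0.32 to 0.01), none past the threshold.

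PKM, pyruvate kinase of most proliferating cells, read 11.20, 11.15 and 10.67 in the knockout line and 11.26, 11.17 and 11.04 in the rescued line. Of the 6 arrays the knockout one at 18 h was lowest, and the change at 18 h was -0.38 (SE 0.10, limma, Benjamini-Hochberg adjusted p = 0.028). LDHA, the lactate dehydrogenase subunit that favours lactate formation, read 13.26, 13.27 and 13.05 in the knockout line and 13.33, 13.25 and 13.05 in the rescued line, a change of -0.24 at 18 h (adjusted p = 0.022). LDHB, the other subunit, changed by -0.02 (95% interval -0.17 to 0.13). Of the 9 genes here whose mean signal reached 12 log2 units, where arrays compress differences, 1 was called at 18 h (11.1%), against 34.7% of 308 such genes among all those tested. With limma's eBayes trend, which lets the assumed spread follow the signal, other bright genes also passed at 18 h. These were ALDOA (0.12, adjusted p = 0.0063), PGAM1 (-0.15, adjusted p = 0.0096) and TKT (0.18, adjusted p = 0.0037). The calls of these bright genes thus depend on that setting.

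**Figure D2:**
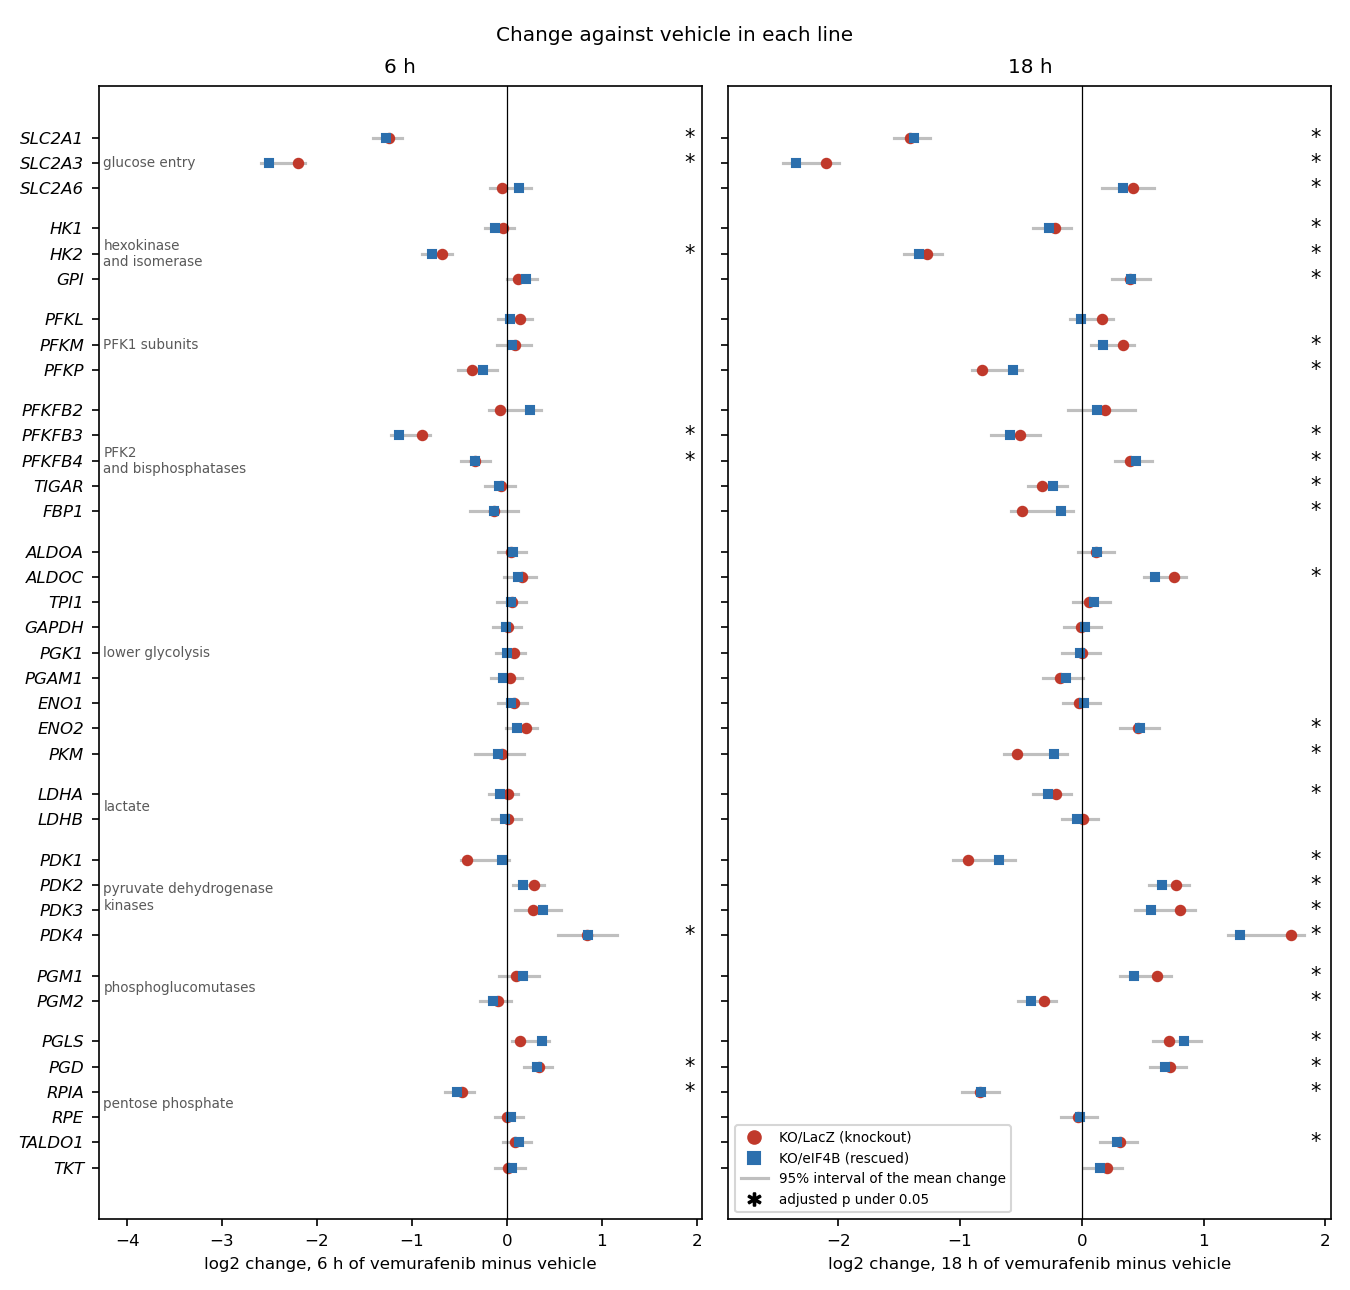
Log2 change against vehicle after 6 h (left panel) and 18 h (right panel) for the 37 genes grouped by role, with circles for the knockout line, squares for the rescued line, grey bars for the 95% interval of the mean change in limma's additive fit and asterisks for an adjusted p under 0.05. At 6 h 8 genes carry an asterisk, and at 18 h 26 do, 13 on each side of 0.

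With 1 array left out at a time, 17 of the 26 calls at 18 h passed in all 6 fits. Those of SLC2A6, HK1, PFKM, TIGAR, FBP1, PKM, LDHA and TALDO1 were lost without the knockout vehicle array (limma, Benjamini-Hochberg adjusted p = 0.0701 to 0.245). The same 8 and PGM2 were lost without the rescued vehicle array (adjusted p = 0.0672 to 0.200). Without the knockout 18 h array, SLC2A6, HK1, PFKM, TIGAR, FBP1, PKM and LDHA were lost (adjusted p = 0.0625 to 0.134), with PKM at -0.22 and FBP1 at -0.17. Without the rescued 18 h array, HK1 and LDHA were lost. PFKM and FBP1 were lost when 1 of the 6 h arrays was left out. The 6 h arrays do not enter this contrast, and the changes of PFKM and FBP1 stayed at 0.25 and -0.33.

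The later time was next set against the earlier one. Between 6 h and 18 h of vemurafenib, 12 of the 37 genes were higher at 18 h and 5 were lower (45.9% called), against 34.0% of all tested genes called, 19.0% higher and 14.9% lower (limma, Benjamini-Hochberg). HK2, PFKP, PDK1, PGM2 and RPIA were lower at 18 h than at 6 h, with differences between -0.25 (PGM2) and -0.57 (HK2 and PDK1). PFKFB4 had the largest difference, 0.76 (SE 0.059, adjusted p = 0.0027), followed by PDK4 at 0.67 (adjusted p = 0.014). PFKFB3 was higher at 18 h than at 6 h by 0.47 (adjusted p = 0.011). SLC2A1 differed by -0.13 (95% interval -0.28 to 0.02) and SLC2A3 by 0.13 (-0.10 to 0.37), and neither passed. With each array centred on the median of its tested genes, 8 of the 37 genes were higher and 9 lower. Over all genes 1855 were higher and 3116 lower, where they were 2568 and 2019 as deposited.

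Only HK2, PFKFB4, ALDOC and PDK2 passed between the times in all 6 fits with 1 array left out. Without the knockout 6 h array, SLC2A6, GPI, PFKP, ENO2, PDK3, PDK4, PGM1, PGM2, PGLS, PGD and RPIA were lost (limma, Benjamini-Hochberg adjusted p = 0.0579 to 0.232). Without the rescued 6 h array, GPI, PFKP, PFKFB3, ENO2, PDK1, PDK3, PGM2, PGD and RPIA were lost (adjusted p = 0.0501 to 0.130). SLC2A6, GPI, PFKP, PFKFB3, ENO2, PDK1, PDK3, PGM1, PGM2 and RPIA were lost without the knockout 18 h array. GPI, ENO2 and PGM2 were lost without the rescued 18 h array. SLC2A6, GPI, PDK3 and PGM2 were lost when 1 vehicle array was left out, although the vehicle arrays do not enter this contrast. Their differences stayed at 0.34, 0.24, 0.36 and -0.25, and only the estimated spread and its degrees of freedom changed. Without the knockout 6 h array SLC2A6 differed by 0.23, and without the knockout 18 h array PDK3 differed by 0.21.

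**Figure D3:**
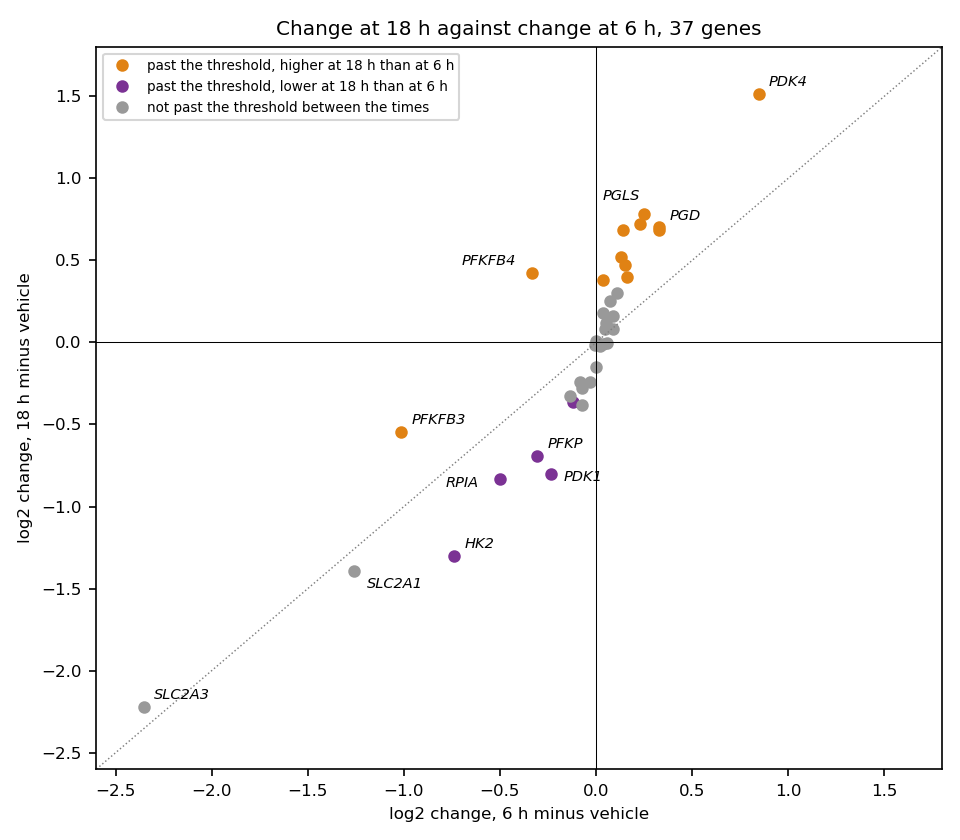
Log2 change at 18 h against vehicle (y axis) plotted against the change at 6 h (x axis), 1 point per gene and 37 in all, with a dotted line of equal change; both axes use the same vehicle arrays. Points coloured as different between the times lie off the line, PFKFB4 sits at -0.33 and 0.42, and SLC2A1 and SLC2A3 lie near the line.

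The lines were compared over all 3 treatments. SLC2A6 was the 1 gene of the 37 that differed between the knockout and the rescued line, and it was higher in the knockout line (2.70% of the genes called, against 2.50% of all tested genes, 1.44% higher and 1.06% lower). It read 6.94, 6.88 and 7.36 in the knockout line (vehicle, 6 h, 18 h) and 6.18, 6.31 and 6.51 in the rescued line. Every knockout array lay above every rescued array. The difference was 0.73 (SE 0.068, limma, Benjamini-Hochberg adjusted p = 0.028). In the 6 fits with 1 array left out it was 0.67 to 0.80, and the call was lost in each. Those fits have 1 residual degree of freedom, and calls between the lines also fell over all tested genes.

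The other 36 genes differed between the lines by -0.17 (SLC2A1) to 0.34 (PDK3). PDK2 (0.25, adjusted p = 0.081), PDK3 (0.34, adjusted p = 0.099) and RPIA (0.22, adjusted p = 0.092) were above 0 in all 3 treatments without passing limma's Benjamini-Hochberg threshold. All 9 genes between aldolase and pyruvate kinase had differences below 0, from -0.15 to -0.01, and none passed.

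**Figure D4:**
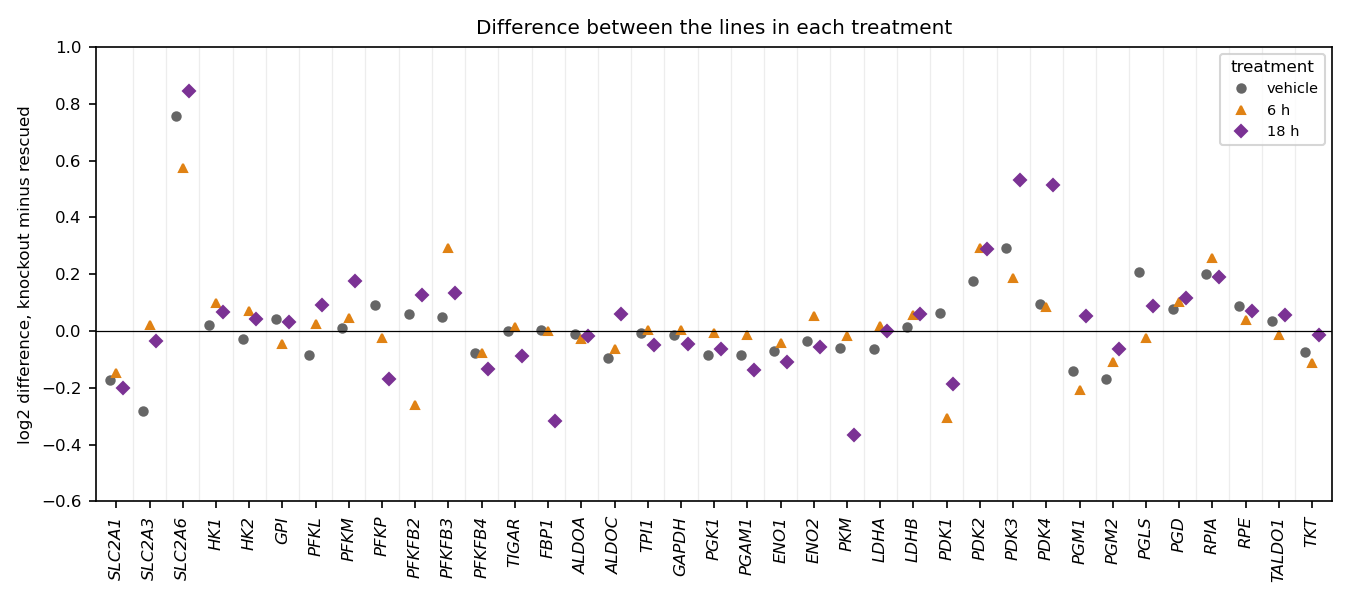
Log2 difference between the knockout and the rescued line (y axis) for each of the 37 genes (x axis) under vehicle (circles), at 6 h (triangles) and at 18 h (diamonds), 1 array per line and treatment. SLC2A6 stands at 0.57 to 0.85 in the 3 treatments.

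Whether the response to vemurafenib itself differed between the lines was tested with 1 term shared by both times, which leaves 1 residual degree of freedom. In limma 0 of 37 genes and 0 of 13506 tested genes passed after Benjamini-Hochberg adjustment. At an unadjusted p under 0.05, 0 of the 37 and 302 of all tested genes (2.24%) stood out. The widest values at a single time, as response in the knockout line minus response in the rescued line, were -0.37 for PDK1 at 6 h and 0.42 for PDK4 at 18 h. None of the 37 reached 1 log2 unit at 6 h or 18 h, against 0.148% and 0.422% of all tested genes. For SLC2A3 the shared difference was 0.28 (95% interval -0.08 to 0.63), for PDK1 -0.31 (-0.68 to 0.06), for PDK4 0.20 (-0.33 to 0.74) and for HK2 0.08 (-0.27 to 0.44).

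Several genes had more than 1 probe set, which gives a check within the array. The 37 genes had 85 probe sets, and 23 genes had more than 1. Of the other probe sets of called genes that reached the minimum signal, 7 of 8 at 6 h and 19 of 20 at 18 h had the sign of the probe set used. The exception at both times was a dim PGD probe set (mean 5.38 log2 units) at -0.18 and -0.15, not past the threshold. With the mean of all its probe sets PGD did not pass at 6 h (0.07, adjusted p = 0.558) or 18 h (0.21, adjusted p = 0.052, limma), nor did PFKFB4 at 6 h (-0.18, adjusted p = 0.074). SLC2A3 had 2 further probe sets, at -2.44 and -2.05 at 6 h, and HK2 had 2, at -0.64 and -0.67 at 18 h. For PFKFB2 the probe set used was at 0.16 at 18 h, while others were at 0.89 (limma over all probe sets, adjusted p = 0.0067) and 0.42 (adjusted p = 0.048).

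**Figure D5:**
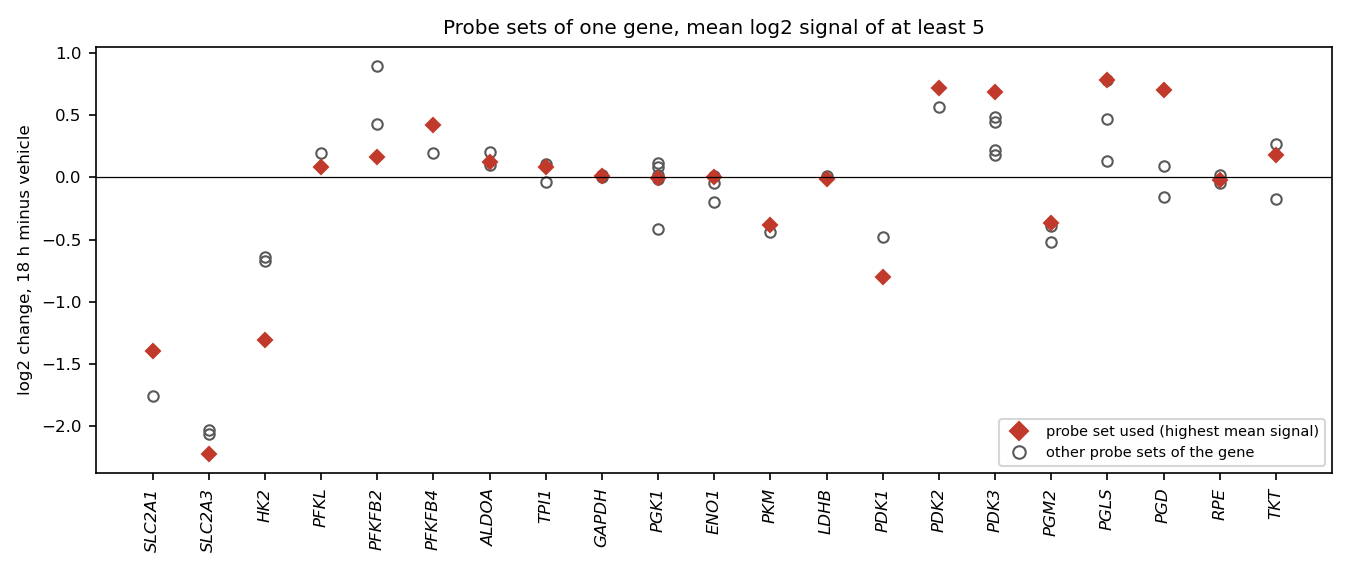
Log2 change at 18 h against vehicle (y axis) for the probe sets of each gene with more than 1 (x axis), limited to probe sets that reached a mean of 5 log2 units. Filled diamonds are the probe sets used and open circles the others; SLC2A1, SLC2A3, HK2 and PDK1 have all points below 0, and PGD has 1 point on the other side of 0.

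Beyond the 37 genes, 59 other genes of glucose, pyruvate and glycogen metabolism were listed and 44 tested. At 6 h 2 were higher and 3 lower (11.4% called, against 16.2% of all tested genes), and at 18 h 16 were higher and 13 lower (65.9%, against 51.4%), with limma's Benjamini-Hochberg adjustment. PGM5, a relative of the phosphoglucomutases found at cell junctions, was among the higher genes at both times. It read 5.65, 7.85 and 9.81 in the knockout line (vehicle, 6 h, 18 h), against 4.28, 6.39 and 7.66 in the rescued line. In every treatment the knockout array was the higher one, a difference of 1.66 (adjusted p = 0.028) and the 1 call between the lines among the 44 (2.27%, against 2.50% of all tested genes). Its vehicle mean of 4.97 lay below the minimum of 5, so PGM5 entered the test only through the drug arrays. Its calls are therefore not read as a result, although the counts of this list include them, and no exact change is read from it. PCK2, the mitochondrial PEP carboxykinase, was higher by 1.48 and 2.11 at 6 h and 18 h (adjusted p = 0.029 and 0.0028). Knockout cells changed by 0.95 and rescued cells by 2.01 at 6 h, and knockout cells by 1.55 and rescued cells by 2.67 at 18 h. The difference between these responses, -1.09 over both times (knockout minus rescued), did not pass after adjustment (adjusted p = 0.811, unadjusted p = 0.00042, limma). SLC16A4, a monocarboxylate transporter relative, and PGM2L1, which makes glucose 1,6-bisphosphate, were also higher at 18 h. SLC16A4 rose by 2.71 (adjusted p = 0.00051), and PGM2L1 averaged 7.94 at 18 h, against 5.94 under vehicle (adjusted p = 0.0013). The 3 lower genes at 6 h were PDP1, the phosphatase that opposes the pyruvate dehydrogenase kinases (-0.89, adjusted p = 0.0069), PDHX, a structural part of the pyruvate dehydrogenase complex (-0.32, adjusted p = 0.036), and GPD2, the mitochondrial glycerol phosphate dehydrogenase (-0.32, adjusted p = 0.0498). Between the times 9 of the 44 were higher at 18 h and 6 lower (34.1% called, against 34.0% of all tested genes).

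Of 24 listed transcription factors and other regulators of this pathway, 21 were tested. At 6 h 2 were higher and 5 lower (33.3% called, against 16.2% of all tested genes), and at 18 h 5 were higher and 8 lower (61.9%, against 51.4%; limma, Benjamini-Hochberg). Between the lines 0 passed, against 2.50% of all tested genes. At an unadjusted p under 0.05 in limma, 6 of the 21 regulators and 3101 of all 13506 tested genes stood out between the lines. MYC, an activator of many glycolytic genes, read 9.27, 7.04 and 5.64 in the knockout line (vehicle, 6 h, 18 h) and 9.18, 7.43 and 6.24 in the rescued line, 3.99-fold lower at 6 h and 9.77-fold lower at 18 h (adjusted p = 0.0034 and 0.00028). TXNIP, an arrestin-like protein that restrains glucose uptake by SLC2A1, read 8.94, 10.48 and 11.04 in the knockout line and 7.88, 10.34 and 10.99 in the rescued line, 3.99-fold higher at 6 h and 6.06-fold higher at 18 h (adjusted p = 0.010 and 0.0011). Its relative ARRDC4 was higher by 0.74 and 0.95 (adjusted p = 0.0078 and 0.00086). BHLHE40, a hypoxia-inducible repressor, was called lower at 6 h, where the knockout array read 4.30 and the rescued array 5.22, against 6.35 and 6.15 under vehicle. The 6 h mean of 4.76 lay below the minimum of 5, and the change was -2.05 for knockout cells and -0.93 for rescued cells. The other lower regulators at 6 h were MLX, the partner of glucose-sensing MLXIP (-0.63), ESRRA, an orphan receptor of energy metabolism (-0.35), and MAX, the partner of MYC (-0.32), with adjusted p = 0.0061 to 0.032. EGLN3, an oxygen-sensing hydroxylase, was higher at 18 h by 1.11 (limma, adjusted p = 0.0066), as were ARNT, the partner of HIF1A (0.65), and MNT, a repressor that pairs with MAX (0.49). EGLN3 read 4.97 (knockout) and 5.05 (rescued) under vehicle, near the minimum of 5, and 6.39 and 5.86 at 18 h. HIF1A, named after its values were seen, changed by 0.01 and -0.06 at 6 h and 18 h, neither past the threshold.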

How the data were processed

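The 6 human U133 Plus 2.0 arrays carried biotin-labelled cRNA from total RNA, per the labels. The authors deposited linear intensities from RMA (the affy package is also named), per the submitters' processing notes (versions not given in the sources used here). That step gives all arrays nearly 1 distribution, so that total mRNA per cell is not measured. It also compresses very dim and very bright signals. The number of arrays limits the precision. The log2 of each intensity was taken here. Array control probe sets (62) stayed out. Of the 54675 probe sets, 41091 carry 1 symbol in the platform annotation, 1801 several and 11721 none here. Through gene identifiers 41037 of the single-symbol probe sets matched RefSeq's GRCh38.p14 table, and 0 symbols changed. The probe set with the highest mean stood for each of 19775 genes, and the 13506 genes whose mean reached 5 were tested.

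Groups came from the labels. Line and treatment were fitted additively over all 6 arrays with lmFit and eBayes of limma 3.58.1, under R 4.3.3, leaving 2 residual degrees of freedom and adding 3.19 from the prior, with Benjamini-Hochberg adjustment over all tested genes and a threshold of 0.05; the lines serve as replicates of a treatment and the treatments as replicates of a line. Differences are drug minus vehicle, 18 h minus 6 h, and knockout minus rescued. The fit was also run on simulated data, drawn with its own fitted spread, independent arrays and additive effects. Such data meet its assumptions, so that run cannot test for shared cultures or responses that differ between the lines. The members, the lists of other pathway genes, regulators and cell markers, and the tests were chosen with earlier results of these data known. All members may be named, with values in every array for those that carry the results. Other pathway genes and regulators are named where they are among the 4 largest changes past the threshold in a contrast or complete a count of 5 or fewer. Alternatives were no filter or a minimum of 6, other uses of several probe sets, centred arrays, eBayes with trend or robust, other model terms, only the 4 arrays of a contrast, and leaving out each array. Figures were drawn with matplotlib 3.10.9 in Python 3.11.15.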

Additional observations from a re-analysis of the deposited data

Results flagged for a closer look

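For 17 of the 37 genes the test of 18 h against 6 h of vemurafenib passed the threshold (45.9%, against 34.0% of all tested genes; limma, Benjamini-Hochberg). Of the 17, 4 (HK2, PFKFB4, ALDOC and PDK2) also passed in every fit with 1 array left out, while GPI and PGM2 passed in none of them. Higher at 18 h than at 6 h, in log2 units, were SLC2A6 by 0.34, GPI by 0.24, PFKFB3 by 0.47, PFKFB4 by 0.76, ALDOC by 0.54, ENO2 by 0.32, PDK2 by 0.49, PDK3 by 0.36, PDK4 by 0.67, PGM1 by 0.39, PGLS by 0.53 and PGD by 0.38. The genes lower at 18 h than at 6 h were HK2 at -0.57, PFKP at -0.39, PDK1 at -0.57, PGM2 at -0.25 and RPIA at -0.33. PFKFB4 alone among the 17 had calls of opposite sign against vehicle, at -0.33 after 6 h and 0.42 after 18 h.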

How the results depend on the processing

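No direction of a called gene reversed under any alternative that was run. The count of genes higher at 6 h, 2 as reported, was 1 with no filter on signal, with the mean of all probe sets, with each probe set on its own, without the line term and with the line-by-drug term, and 5 with an eBayes trend. The count higher in the knockout line, 1 as reported, was 0 with each probe set on its own and without the treatment term, and 3 with the trend (PDK3 and RPIA added). The count lower at 18 h than at 6 h, 5 as reported, was 9 with centred arrays, 10 with the trend and 3 without the line term. With the mean of all probe sets, PGD lost its calls at 6 h (0.07, adjusted p = 0.558) and 18 h (0.21, adjusted p = 0.052), and PFKFB2 passed at 18 h (0.34, adjusted p = 0.014). The trend gave 15 higher and 13 lower genes at 18 h, with ALDOA, PGAM1 and TKT added. At 18 h, HK1, LDHA, PFKM and FBP1 were lost with each probe set on its own (adjusted p = 0.061 to 0.071) and with the line-by-drug term (0.054 to 0.060). SLC2A6 (0.465), PKM (0.058), PFKM (0.058) and FBP1 (0.066) were lost without the line term, PFKM (0.054) and FBP1 (0.064) with no filter, both with only the 4 arrays (0.0504 and 0.0520), FBP1 with the trend (0.054), and PFKM with centred arrays (0.127). At 6 h, PFKFB4 and PGD were lost with no filter, each probe set on its own, no line term and the line-by-drug term (0.052 to 0.077), PFKFB4 with the mean of all probe sets (0.074), and RPIA without the line term (0.078). Leaving out 1 array gave 0 to 3 higher and 4 to 7 lower at 6 h, 10 to 13 higher and 7 to 12 lower at 18 h, 4 to 10 higher and 1 to 6 lower between the times, and 0 higher in the knockout line in every fit; these fits have 1 residual degree of freedom, so a lone array is assumed to vary like the other groups.

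Over all genes the calls at 6 h, 991 higher and 1191 lower as reported, were 563 and 835 with no filter, 439 and 698 with each probe set on its own, 353 and 623 without the line term, 639 and 823 with the line-by-drug term and 1520 and 1574 with the trend. Between the lines, 194 and 143 became 33 and 25 with no filter, 10 and 10 with each probe set on its own, 0 and 1 without the treatment term, 86 and 80 with the line-by-drug term, 316 and 197 with a minimum of 6, 227 and 271 with centred arrays and 629 and 540 with the trend. Between the times, 2568 and 2019 became 1777 and 1273 with each probe set on its own and 1506 and 1221 without the line term. With 1 array left out, all genes gave 163 to 1189 higher and 365 to 1341 lower at 6 h, 2464 to 3610 and 1846 to 2953 at 18 h, 791 to 2467 and 644 to 1785 between the times, and 0 to 17 and 0 to 33 between the lines. The cause of these shifts was not tested. The line term sets each drug array against the vehicle array of its line; the labels give no replicate numbers for any further pairing. Signals near the minimum, such as FBP1, and near the top of the range limit what can be read.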
